A study of Mus musculus with 32 samples.

Results

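Regenerating livers with an intact Rps6 gene were compared at 40 h and at 30 h after partial hepatectomy, an operation that takes out some lobes and leaves the others to grow. The 8 livers, 4 at 40 h and 4 at 30 h, were chosen by their labels from 32 in the series. They came from male C57BL/6 mice, aged 3 months and homozygous for a floxed allele of Rps6, the gene of a protein of the small ribosomal subunit, without the Mx-Cre transgene (Cre minus). Where the step in time was set against that of livers with Rps6 deleted, 5 livers at 40 h and 3 livers at 30 h from mice with the same floxed alleles plus Mx-Cre (Cre plus) were used. The series also holds 4 livers of each genotype at 0 h and 4 at 20 h. These entered the fit over all 32 arrays and the time course, in which the Cre minus livers at 0 h were the baseline. Mx-Cre is driven by an interferon-responsive promoter and was induced by injecting polyinosinic-polycytidylic acid. The sources used here do not say whether Cre minus mice were injected, nor the time of day of surgery or collection. The samples at 40 h and 30 h may therefore also differ in time of day, and where they do it cannot be told apart from time since surgery. None of the groups is labelled as sham-operated, and nothing in the labels says that each sample is a mouse of its own, so the p-values reflect only how these samples differ among themselves, which may be technical.

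Adult hepatocytes rarely divide. After partial hepatectomy those that remain leave quiescence, pass through G1, copy their DNA in S phase and then enter mitosis, and the genes for each stage are transcribed in that order. Genes of DNA synthesis are largely controlled by E2F factors, held back by the retinoblastoma family until cyclin-dependent kinases act. Genes of mitosis are controlled by the MuvB complex with B-Myb and Foxm1, which reads an element called CHR. All of this tissue is bulk liver, in which fewer cells of a type and less RNA per cell cannot be told apart.

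Expression was read as log2 values from 1-colour oligonucleotide arrays, on which a set of short probes reports each transcript. A probe set was tested if it was bright enough on at least 3 arrays, which left 9249, and it was called changed at an adjusted p under 0.05 (limma, Benjamini-Hochberg over all probe sets tested). The step is 40 h minus 30 h with batch (PHX2 or PHX3 in the labels) as a term, so it can differ slightly from the plain difference of means. At 40 h, 1 of the 4 livers (D) was in PHX2, and at 30 h, 2 (C and D) were. A log2 value has no meaning across probe sets, so levels are compared within a gene only.

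The targeted gene followed the labels. The probe set for Rps6, shared in the annotation with a pseudogene, averaged 11.35 ± 0.10 at 40 h and 11.47 ± 0.12 at 30 h in Cre minus livers (SD, n = 4 each). In Cre plus livers it averaged 7.21 at 40 h and 6.89 at 30 h. Albumin (Alb), the most abundant hepatocyte product, stood at 13.73 ± 0.03 at 40 h and 13.68 ± 0.11 at 30 h. The mean correlation of a Cre minus liver with the others of its time was 0.978 to 0.986 at 40 h and 0.945 to 0.970 at 30 h. The lowest, 0.945, belonged to liver C at 30 h, and list medians and calls without it are given where it moved them by over 1.5 times. Among Cre plus livers, D at 40 h and A at 30 h were also under 0.95. The gap between the 3′ and 5′ control probe sets for Actb, a measure of RNA integrity, was 0.94 to 1.12 at 40 h and 0.74 to 1.24 at 30 h.

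The promoters of 5 genes called higher at 40 h are shown because the genes of DNA synthesis and of mitosis differ in the sequence elements they carry. Rrm2 and Mcm5 act in S phase, and Cdk1, Cdc20 and Aurka in mitosis. Each sequence is the RefSeq promoter window of build GRCm38.p6, from 250 bases before to 50 after the annotated start, written 5′ to 3′ on the gene's strand. Capitals mark the letters searched for on both strands: the E2F core (TTCCCGC or TTGGCGC), the CCAAT box (CCAAT) and the CHR element (TTTGAA). On the opposite strand the CCAAT box can share letters with the second E2F form. The windows lie at chr12:24708004-24708303 (Rrm2, plus strand), chr8:75109259-75109558 (Mcm5, plus strand), chr10:69352863-69353162 (Cdk1, minus strand), chr4:118437294-118437593 (Cdc20, minus strand) and chr2:172370521-172370820 (Aurka, minus strand).
Rrm2: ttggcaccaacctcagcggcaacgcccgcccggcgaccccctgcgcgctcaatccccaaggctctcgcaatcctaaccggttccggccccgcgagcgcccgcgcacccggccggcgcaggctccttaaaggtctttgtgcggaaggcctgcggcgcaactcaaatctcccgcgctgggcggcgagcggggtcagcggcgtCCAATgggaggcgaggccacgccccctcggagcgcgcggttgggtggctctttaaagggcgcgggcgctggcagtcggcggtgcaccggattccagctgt
Mcm5: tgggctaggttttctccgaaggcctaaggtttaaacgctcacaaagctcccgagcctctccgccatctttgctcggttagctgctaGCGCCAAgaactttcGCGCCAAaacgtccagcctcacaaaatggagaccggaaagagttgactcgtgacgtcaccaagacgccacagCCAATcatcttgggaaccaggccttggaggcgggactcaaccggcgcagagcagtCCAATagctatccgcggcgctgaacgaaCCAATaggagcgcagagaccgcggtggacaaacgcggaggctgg
Cdk1: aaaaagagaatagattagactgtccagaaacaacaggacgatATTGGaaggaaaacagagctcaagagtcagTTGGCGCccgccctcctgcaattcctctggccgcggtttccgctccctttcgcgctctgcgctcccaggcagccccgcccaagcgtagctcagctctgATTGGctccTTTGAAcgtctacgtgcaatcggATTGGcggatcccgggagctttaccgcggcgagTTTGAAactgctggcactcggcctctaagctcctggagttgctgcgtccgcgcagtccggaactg
Cdc20: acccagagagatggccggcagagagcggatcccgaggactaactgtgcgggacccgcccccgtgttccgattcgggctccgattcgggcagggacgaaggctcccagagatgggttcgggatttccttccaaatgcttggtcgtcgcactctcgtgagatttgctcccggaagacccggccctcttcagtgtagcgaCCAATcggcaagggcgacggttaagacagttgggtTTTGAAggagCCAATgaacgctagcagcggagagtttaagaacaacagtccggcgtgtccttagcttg
Aurka: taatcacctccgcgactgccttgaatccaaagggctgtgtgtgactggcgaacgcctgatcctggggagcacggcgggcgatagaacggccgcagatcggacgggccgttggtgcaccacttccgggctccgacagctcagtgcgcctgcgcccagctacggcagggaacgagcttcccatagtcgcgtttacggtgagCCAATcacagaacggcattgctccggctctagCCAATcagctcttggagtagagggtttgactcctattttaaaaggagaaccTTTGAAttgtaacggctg

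The Mcm5 window held 2 E2F cores and 3 CCAAT boxes, and no CHR element. Cdk1 held 1 E2F core, 3 CCAAT boxes and 2 CHR elements, the nearer of which lies just before the start. Cdc20 and Aurka each held 2 CCAAT boxes and 1 CHR element, and no E2F core. The Rrm2 window held a single CCAAT box, and that of Tk1, another gene of S phase, held no match and is not shown. For the E2F core these single windows gave no clear contrast, since Rrm2 and Tk1 held none and Cdk1 held 1. Over whole lists the shares differed for both elements. A window was found for 49 of 54 tested genes of DNA replication and nucleotide supply, and of these 22 (44.9%) held an E2F core and 6 (12.2%) a CHR element. Of the 28 with a window among 35 tested genes of mitosis, 3 (10.7%) held an E2F core and 19 (67.9%) a CHR element. Among the 5419 genes tested on the array with a window these shares were 11.6% and 12.1%, and among all 27025 genes with a RefSeq window they were 6.93% and 18.1%. CCAAT boxes were found in 57.1% of the replication windows, 71.4% of the mitosis windows and 38.5% of those tested on the array. The E-box (CACGTG), the site of clock and Myc factors, was in 14.3%, 7.14% and 10.1%. A match describes letters in a window and is no evidence that a factor binds there.

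Genes of DNA synthesis and of mitosis were higher at 40 h than at 30 h, and in the fit over all arrays few other genes passed the test. Of 9249 probe sets 94 were called (1.02%), 88 of them higher at 40 h (0.951%) and 6 lower (0.0649%), and 807 had an unadjusted p under 0.05. The 88 comprised 80 genes named by a probe set of their own, of which 56 belonged to the 8 lists of cell cycle genes. Each of these lists held 13 to 26 of the 6786 genes tested, and they were chosen with earlier results of these data known. The steps of the 88 lay between 0.33 and 2.22, with a median of 0.82, and 24 were at least 2-fold. No called probe set was lower by as much as 2-fold. In 76 of the 88 the 4 livers at 40 h all lay above the 4 at 30 h, and in 4 of the 6 they all lay below. These probe sets were called on the same livers, so such separation is largely built in and adds no support. Its share over all probe sets is not given here. The median step over 6786 genes was 0.01, and 53.6% of them were above 0, on values that RMA had brought to a common distribution. The calls rest on the spread estimated over all 32 arrays. With the 8 arrays alone none was called (limma, 481 with an unadjusted p under 0.05), with the 16 Cre minus arrays 41 were, and within PHX2 alone none was (253). With array weights 334 probe sets were called higher and 234 lower, and the higher ones comprised 291 genes, of which 72 were in the cell cycle lists, against 56 of 80 without weights.

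The widest step was that of D17H6S56E-5, a gene known in the annotation by its place on chromosome 17. It read 8.59, 7.62, 7.63 and 6.28 in livers A to D at 40 h, against 6.11, 4.93, 4.02 and 5.98 at 30 h. The lowest liver at 40 h was only just above the highest at 30 h. Its step was 2.22 ± 0.50 (SE, adjusted p = 0.020), and the call was lost without liver B or C at 30 h or A, B or C at 40 h, with a highest p of 0.135. Stmn1, which encodes stathmin, a protein that takes microtubules apart, followed. It read 9.90, 9.93, 8.77 and 8.42 at 40 h, against 7.49, 6.73, 6.22 and 8.24 at 30 h. Its step was 2.06 ± 0.32 (adjusted p = 0.000593) and held whichever of the 8 livers was left out. A second Stmn1 probe set, dimmer on average, had a step of 0.13 (adjusted p = 0.802).

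**Figure D1:**
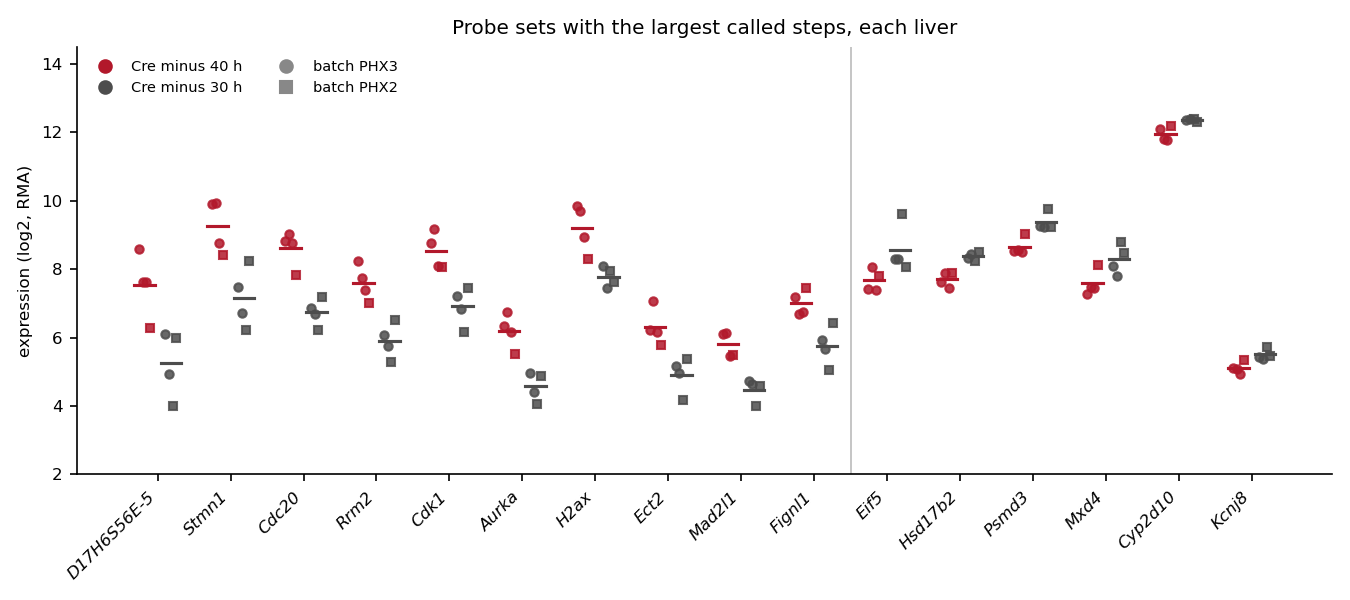
Log2 expression (vertical axis) of the 10 genes with the largest called rise and the 6 called lower, with Cre minus livers at 40 h left of those at 30 h, 1 point per liver and a bar at the mean. Squares are PHX2 and circles PHX3. Cdc20 lies between 7.83 and 9.02 at 40 h, above its 6.22 to 7.18 at 30 h.

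Among genes that load and fire replication origins, 5 of 15 tested were called higher and none lower, against 1.09% and 0.0884% of all genes by their brightest probe set. The median step of the list was 0.54. Cdt1, which loads the MCM helicase onto origins, read 8.36, 8.14, 7.98 and 8.58 at 40 h, against 7.36, 7.63, 7.04 and 7.56 at 30 h. The groups did not overlap and the step was 0.86 ± 0.12 (adjusted p = 9.58e-05). Cdc6, its loading partner, had a step of 1.08 ± 0.22 (adjusted p = 0.00624) and read highest in liver D at 40 h, at 7.13 against 5.80 to 6.16 in the other livers of that time. Gmnn encodes geminin, which inhibits Cdt1 once S phase has begun, and it was higher together with its target by 0.96 ± 0.16 (adjusted p = 0.000943). Cdc45, a part of the active helicase, had a step of 0.54 ± 0.10 (adjusted p = 0.00323). Mcm5, a subunit of the helicase ring, read 10.08, 9.86, 9.30 and 9.77 at 40 h, against 8.46, 9.29, 7.05 and 9.03 at 30 h. All livers at 40 h lay above all at 30 h, by only 0.01 between liver C at 40 h and B at 30 h. Its step of 1.25 ± 0.30 (adjusted p = 0.0378) was no longer called without liver A, B or D at 40 h or A or C at 30 h, and without liver C at 30 h its adjusted p was 0.160. A dimmer Mcm5 probe set had a step of 0.10 (adjusted p = 0.788).

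Of 26 genes acting at the replication fork 8 were called higher, with a list median of 0.40, and 5 without liver C at 30 h. Pcna, the sliding clamp that holds polymerases on DNA, read 8.77, 8.86, 7.92 and 8.60 at 40 h, against 7.42, 7.61, 6.92 and 7.82 at 30 h. The lowest liver at 40 h exceeded the highest at 30 h, and the step was 1.11 ± 0.20 (adjusted p = 0.00232). The clamp is loaded by replication factor C, and its subunits Rfc4 and Rfc5 had steps of 0.96 ± 0.17 (adjusted p = 0.00205) and 0.85 ± 0.16 (adjusted p = 0.00431), although a dimmer Rfc5 probe set had 0.11 (adjusted p = 0.715). Uhrf1, which carries DNA methylation over to the new strand, was among the most regular genes. Its 40 h values of 8.12, 7.83, 7.68 and 7.93 stood clear of 7.03, 7.21, 6.75 and 7.18 at 30 h, a step of 0.86 ± 0.11 (adjusted p = 2.51e-05). Rpa3, of the complex that coats single-stranded DNA, had a step of 0.58 ± 0.14 (adjusted p = 0.0309), lost without liver B or C at 30 h or A, B or D at 40 h, where p was at most 0.196.

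Deoxynucleotide supply showed the same direction in fewer genes, 4 of 13, with a list median of 0.18. Both subunits of ribonucleotide reductase, which makes deoxynucleotides from ribonucleotides, were higher. Rrm2, the subunit made in S phase, read 8.25, 7.74, 7.39 and 7.02 at 40 h, against 6.06, 5.75, 5.29 and 6.51 at 30 h, with no overlap and a step of 1.69 ± 0.28 (adjusted p = 0.000741). Rrm1, the large subunit, had a step of 0.82 ± 0.14 (adjusted p = 0.000711), and a dimmer probe set of it had 0.03 (adjusted p = 0.955). Tk1, cytosolic thymidine kinase, had a step of 1.14 ± 0.19 (adjusted p = 0.000911), although a dimmer probe set of the gene had -0.16 (adjusted p = 0.743). Dck, deoxycytidine kinase, passed at 0.91 ± 0.23 (adjusted p = 0.0485) and lost the call on leaving out any liver but D at 30 h and C at 40 h, with a highest p of 0.300 without liver C at 30 h. Dtymk, thymidylate kinase, read 6.17 to 7.16 at 40 h and 5.45 to 6.43 at 30 h (step 0.53 ± 0.21, adjusted p = 0.438).

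In the list of DNA repair and damage response 4 of 15 were called, with a median of 0.17. Without liver C at 30 h 1 was called and the median was 0.11. H2ax, the histone variant that is phosphorylated around breaks, read 9.84, 9.71, 8.93 and 8.29 at 40 h, against 8.09, 7.45, 7.96 and 7.63 at 30 h. The groups did not overlap, and the step was 1.40 ± 0.30 (adjusted p = 0.0104), with p up to 0.0770 without liver A or B at 40 h or B at 30 h. Parp1, Chek2 and Brca2, which sense or mend breaks, had smaller steps of 0.49, 0.38 and 0.35 (adjusted p = 0.0407, 0.0293 and 0.0350). Each of these 3 lost its call without liver A or C at 30 h or A or B at 40 h, and also without C at 40 h for Parp1 and Brca2 and without B at 30 h for Brca2, with highest p of 0.276, 0.194 and 0.155. Rad51ap1, of homologous recombination, was at 7.14 to 7.43 at 40 h and 6.72 to 7.27 at 30 h (adjusted p = 0.0900). Fignl1, also of homologous recombination, stood outside the lists. It had a step of 1.27 ± 0.21 (adjusted p = 0.000684), while its brighter probe set had -0.07 (adjusted p = 0.790).

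Of 16 regulators of G1, 2 were called higher, with a list median of 0.23. Without liver C at 30 h 1 was called and the median was 0.12. Cdkn2c, an inhibitor of Cdk4 and Cdk6, had a step of 0.70 ± 0.13 (adjusted p = 0.00338). Foxm1, the transcription factor that drives mitotic genes, changed little in size, reading 8.51, 8.48, 8.31 and 8.33 at 40 h, against 8.07, 7.98, 8.10 and 8.24 at 30 h. Its livers were close together, and the step of 0.35 ± 0.08 was called (adjusted p = 0.020), though not without liver A or B at 40 h or B or C at 30 h, where p reached 0.131, and a dimmer probe set had 0.21 (adjusted p = 0.516). Ccnd1, cyclin D1 of early G1, read 8.49, 8.58, 8.21 and 8.97 at 40 h, against 8.66, 8.53, 6.14 and 8.35 at 30 h. It was not called (adjusted p = 0.781), and its fitted step of 0.51 ± 0.55 was 0.01 without liver C at 30 h, the only low one. Ccne1, cyclin E1 of the G1 to S boundary, was at 8.15 to 8.38 at 40 h and 8.04 to 8.28 at 30 h (step 0.10 ± 0.10, adjusted p = 0.755). Tfdp1, the partner of E2F factors, had 0.61 ± 0.27 (adjusted p = 0.520), and Cdkn2d, another Cdk4 and Cdk6 inhibitor, 0.31 ± 0.08 (adjusted p = 0.0712).

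The mitotic cyclins, kinases and checkpoint genes had the highest median of the 47 lists, 0.73, and 12 of 19 were called. Cdc20, which activates the anaphase-promoting complex and so ends metaphase, had a step that was large beside its error. It read 8.83, 9.02, 8.77 and 7.83 at 40 h, against 6.88, 6.69, 6.22 and 7.18 at 30 h. The groups did not overlap. The step was 1.85 ± 0.19, a 3.61-fold rise (adjusted p = 1.84e-06), and it lay between 1.69 and 2.15 whichever of the 8 livers was left out. Cdk1, the kinase that drives entry into mitosis, read 8.78, 9.19, 8.08 and 8.07 at 40 h, against 7.23, 6.83, 6.17 and 7.46 at 30 h. Its lowest liver at 40 h was above its highest at 30 h, and the step was 1.61 ± 0.24 (adjusted p = 0.000308). Its cyclin partners were higher too, Ccnb2 by 1.13 ± 0.18 (adjusted p = 0.000650) and Ccna2 by 0.58 ± 0.10 (adjusted p = 0.000696). Ccnb1 had no probe set of its own in the annotation used.

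Aurka, the kinase that matures the spindle poles, read 6.33, 6.75, 6.17 and 5.52 at 40 h, against 4.97, 4.42, 4.05 and 4.87 at 30 h (step 1.59 ± 0.19, adjusted p = 1.72e-05). Mad2l1, which holds back Cdc20 until all chromosomes are attached, read 6.11, 6.15, 5.47 and 5.51 at 40 h, against 4.72, 4.64, 3.99 and 4.57 at 30 h (step 1.32 ± 0.17, adjusted p = 2.51e-05). Birc5, survivin, of the chromosomal passenger complex, read 4.97, 5.19, 4.94 and 4.63 at 40 h, against 3.83, 3.74, 3.53 and 4.05 at 30 h (step 1.15 ± 0.13, adjusted p = 4.29e-06). In all 3 the groups were apart, which is largely built in for called probe sets. The activator Cdc20, its inhibitor Mad2l1 and the kinases Cdk1 and Aurka were thus all called higher at 40 h. Wee1, a kinase that restrains Cdk1 and is also a clock-controlled gene, had a lowest liver of 4.45 at 40 h, against a highest of 4.30 at 30 h (step 0.73 ± 0.14, adjusted p = 0.00338).

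Kinesins and other spindle proteins rose in 10 of 16 genes, with a list median of 0.55. Ect2, which switches on RhoA at the site of cytokinesis, read 6.23, 7.07, 6.17 and 5.79 at 40 h, against 5.16, 4.97, 4.18 and 5.38 at 30 h (step 1.36 ± 0.23, adjusted p = 0.000741). Kif20a, a kinesin of cytokinesis, had a step of 1.18 ± 0.19 (adjusted p = 0.000650). Its 40 h values were 5.41, 5.59, 5.39 and 4.30, so that liver D lay just above the 3.57 to 4.22 of 30 h. The brighter Kif20a probe set, by which the gene enters the list, had 0.40 and was not called (adjusted p = 0.104). Anln, the anillin scaffold of the cleavage furrow, had 0.91 ± 0.15 (adjusted p = 0.000784). Prc1, which bundles microtubules of the central spindle, had 0.90 ± 0.18 (adjusted p = 0.00597), and Kif2c, a microtubule-depolymerising kinesin, 0.88 ± 0.14 (adjusted p = 0.000650). The 1 member of the list below 0, picked out after its values were seen, was the tubulin gene Tubb2a. It read 9.02, 9.82, 8.76 and 9.61 at 40 h, against 10.21, 11.05, 11.76 and 10.08 at 30 h, a step of -1.49 ± 0.54 that was not called (adjusted p = 0.338). Its dimmer probe set had the opposite sign, at 0.41 (adjusted p = 0.661).

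Genes that package chromosomes were called in 7 of 17, with a median of 0.40. H2az1, a histone variant, had a step of 1.18 ± 0.19 (adjusted p = 0.000650). The condensin genes Smc2 and Ncaph had 1.18 ± 0.27 (adjusted p = 0.020) and 0.86 ± 0.14 (adjusted p = 0.000593), and the Smc2 call was lost without liver B or C at 30 h or B, C or D at 40 h (highest p 0.135). Top2a, which untangles sister chromatids, had 0.77 ± 0.15 (adjusted p = 0.00624), and Lmnb1, lamin B1 of the nuclear envelope, 0.73 ± 0.12 (adjusted p = 0.000784). Mki67, whose Ki-67 protein is the usual stain for dividing cells, was at 4.69 to 5.20 at 40 h and 4.68 to 5.30 at 30 h on its tested probe set, which was dim. Its step was 0.12 ± 0.15 (adjusted p = 0.817).

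Outside the 8 cell cycle lists 24 named genes were called higher, and several of them are known cell cycle genes that the lists did not hold. Picked out after their values were seen, Cdca3, a trigger of mitotic entry, had the smallest p of all. It read 6.12, 6.29, 6.11 and 6.05 at 40 h, against 5.33, 5.18, 5.26 and 5.40 at 30 h (step 0.85 ± 0.07, adjusted p = 8.58e-08). Cdca8, borealin of the passenger complex, had 0.88 ± 0.14 (adjusted p = 0.000650), and Dtl, which marks Cdt1 for destruction, 0.91 ± 0.14 (adjusted p = 0.000348). Lin9, a core subunit of MuvB, had 0.37 ± 0.08 (adjusted p = 0.0202), lost without liver A, B or C at 30 h or B or D at 40 h (highest p 0.0866). A probe set without a gene name here, 160159_at, had a step of 1.58 ± 0.19 (adjusted p = 1.72e-05), with 4.41 to 5.73 at 40 h and 3.42 to 4.01 at 30 h.

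**Figure D2:**
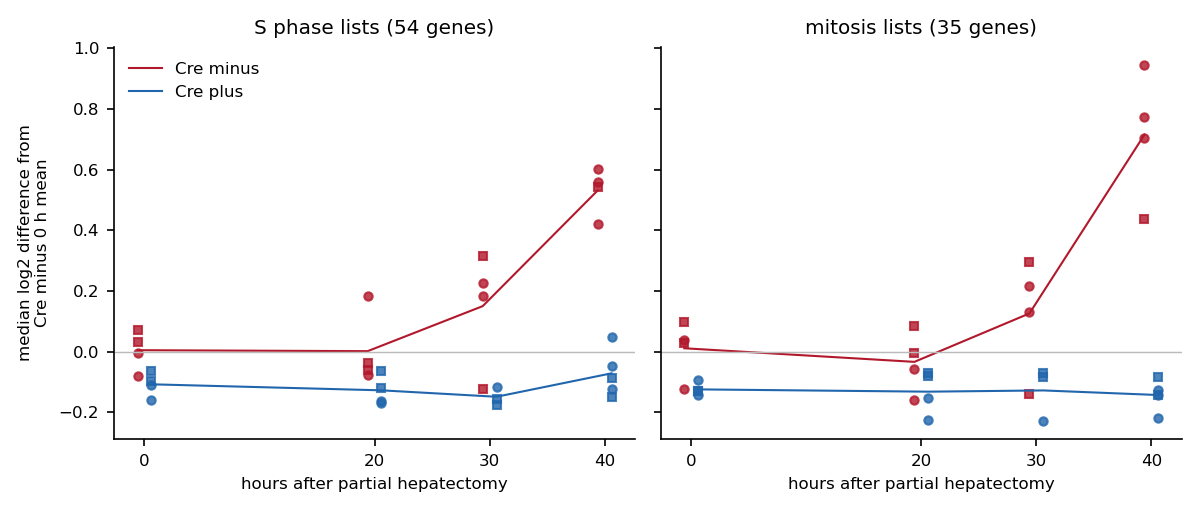
Median over the genes of the DNA replication and nucleotide lists (left) and the mitosis lists (right) of each liver's log2 value minus the Cre minus 0 h mean (vertical axis), by hours after surgery, 1 point per liver and a line through group means. Squares are PHX2 and circles PHX3. Cre minus livers at 40 h lie between 0.42 and 0.60 (left) and 0.44 and 0.95 (right), above every other liver plotted.

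The course of the lists over time placed this step. Taking for each liver the median over 54 genes of replication and nucleotide supply of its difference from the Cre minus 0 h mean, the Cre minus group means in order of time were 0.00 (0 h), 0.00 (20 h), 0.15 (30 h) and 0.53 (40 h). The 4 livers stood at 0.56, 0.60, 0.42 and 0.54 at 40 h, against 0.18, 0.23, -0.12 and 0.31 at 30 h. For 35 genes of mitosis the group means were 0.01, -0.03, 0.13 and 0.72 at the 4 times. Single livers stood at 0.77, 0.95, 0.70 and 0.44 at 40 h, against 0.22, 0.13, -0.14 and 0.30 at 30 h. In both measures the livers at 40 h were clear of those at 30 h, and at 30 h liver C was below the mean of 0 h livers, with 18 of 54 and 9 of 35 genes above their 0 h mean. Among Cre plus livers at 40 or 30 h the highest single value was 0.05. Gene by gene, Cdc20 averaged 6.43, 6.37, 6.74 and 8.61 at these 4 times, and Rrm2 averaged 4.84, 4.88, 5.91 and 7.60.

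Within each batch the direction held for nearly all calls. Of the 88 probe sets called higher, 87 had a positive step within each batch, the exception being a probe set annotated to several H2a histone genes, and all 6 called lower were negative in both. The called step combines both batches, so this agreement is partly built in and is no independent support. Its share over all probe sets is not given here. The list median for origin licensing was 0.47 within PHX3 and 0.94 within PHX2. Its member Cdc6 had steps of 0.69 within PHX3 and 1.97 within PHX2. The list medians within PHX3 and PHX2 were 0.75 and 0.66 for mitotic cyclins, kinases and checkpoint, and 0.58 and 0.30 for spindle proteins. Ccnb2 had 1.47 within PHX3 and 0.25 within PHX2, and Cdc20 had 2.09 and 1.13. A test of PHX3 step minus PHX2 step called no probe set (limma, smallest adjusted p = 0.462, 363 with an unadjusted p under 0.05). Since PHX2 held 1 liver at 40 h, the batch and that liver cannot be told apart.

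Left out one at a time, single livers at 40 and 30 h changed the number of calls. All 88 steps stayed above 0 and all 6 stayed below 0 in each of these 8 fits. Probe sets called on the same livers could hardly change sign in this way, so the kept direction adds no support. In every one of these fits 51 probe sets, all higher, were called. Leaving out liver C at 30 h cost 36 of the 88 calls and all 6 of the lower ones, the most of any liver, and brought the median step over the 88 to 0.70. Without liver A or B at 40 h, 29 and 32 of the 88 were lost, and without liver D at 30 h 3. Among named genes, Cdc20, Stmn1, Rrm2, Cdk1, Aurka, Ect2, Mad2l1, Birc5, Pcna, Uhrf1, Rrm1 and Tk1 were called in all 8.

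The difference between the genotypes was tested as the Cre minus step minus the Cre plus step. It called 19 probe sets (0.205%), 18 higher and 1 lower, and all 18 were among the 88. The difference contains the Cre minus step, so this overlap is partly built in. No probe set was called in the Cre plus step on its own (limma, 480 with an unadjusted p under 0.05). That count depended on the arrays: without the 3 whose mean r was under 0.95, 2 of them Cre plus, the Cre plus step had 488 calls higher and 324 lower, and with array weights 812 and 569. Over the 88, the Cre plus step had a median of 0.04 and a range of -0.28 to 0.35. The 88 were chosen by their Cre minus step, so a smaller Cre plus step is partly built in and adds no support. Cdc20 led, with a difference of 1.83 ± 0.27 (adjusted p = 0.00149). In Cre plus livers it read 6.52, 6.44, 6.55, 6.28 and 6.06 at 40 h and 6.40, 6.18 and 6.43 at 30 h, beside a mean of 6.43 in Cre minus livers at 0 h. For Aurka the difference was 1.64 ± 0.27 (adjusted p = 0.00336), and for Kif20a, on its dimmer probe set, 1.33 ± 0.27 (adjusted p = 0.0271). Mad2l1 had 1.27 ± 0.24 (adjusted p = 0.0150) and Ccnb2 1.20 ± 0.26 (adjusted p = 0.0451). Cdca3 had the smallest p of the difference, at 0.84 ± 0.11 (adjusted p = 0.000166), and Cdca8 and Dtl had 1.05 (adjusted p = 0.0215) and 1.03 (adjusted p = 0.0187). The differences for Birc5, 1.19 ± 0.18 (adjusted p = 0.00149), and Uhrf1, 0.95 ± 0.15 (adjusted p = 0.00289), were called too. The probe set without a gene name, 160159_at, had the largest called difference after Cdc20, at 1.75 ± 0.27 (adjusted p = 0.00175). Cdc20, Aurka, Birc5, Uhrf1, Cdca3 and 160159_at kept this call whichever of the 16 livers at 30 or 40 h was left out. Mad2l1 lost it without Cre plus liver B or C at 30 h (highest adjusted p = 0.0737), Kif20a on 7 of the 16 omissions (0.173) and Ccnb2 on 12 (0.246). Dtl lost it on 3 (0.101), Cdca8 on 4 (0.164), Ncaph on 10 (0.178) and Anln on 13 (0.173). The number of calls rested heavily on single arrays. Without those 3 arrays the Cre minus step had 51 calls higher and 1 lower, while the difference had 120 higher and 233 lower. In that fit Cdc20 had a difference of 1.61 (adjusted p = 0.00924) and Aurka of 1.38 (adjusted p = 0.0151).

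The difference between genotypes was short of the threshold for most genes of replication and of mitosis. It called 1 of 15 origin licensing genes, 1 of 26 fork genes and 0 of 13 of nucleotide supply, beside 0.205% of all probe sets. In these lists 12, 23 and 9 genes had a difference above 0. Of mitotic cyclins, kinases and checkpoint genes it called 6 of 19, with 18 above 0, and of spindle genes 3 of 16, with 15 above 0. The share of all genes with a difference above 0 is not given here, so the counts above 0 only describe these lists. Beside Uhrf1, the 1 replication gene called was Cdc45, at 0.68 ± 0.14 (adjusted p = 0.0397), lost on 9 of 16 omissions (highest p 0.219). Rrm2 had a difference of 1.70 ± 0.40 (adjusted p = 0.0843) and Pcna of 1.07 ± 0.29 (adjusted p = 0.203). In the mitosis lists, Cdk1 had 1.45 ± 0.34 (adjusted p = 0.0852). Stmn1, also of those lists, was at the edge with 2.06 ± 0.46 (adjusted p = 0.0504).

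**Figure D3:**
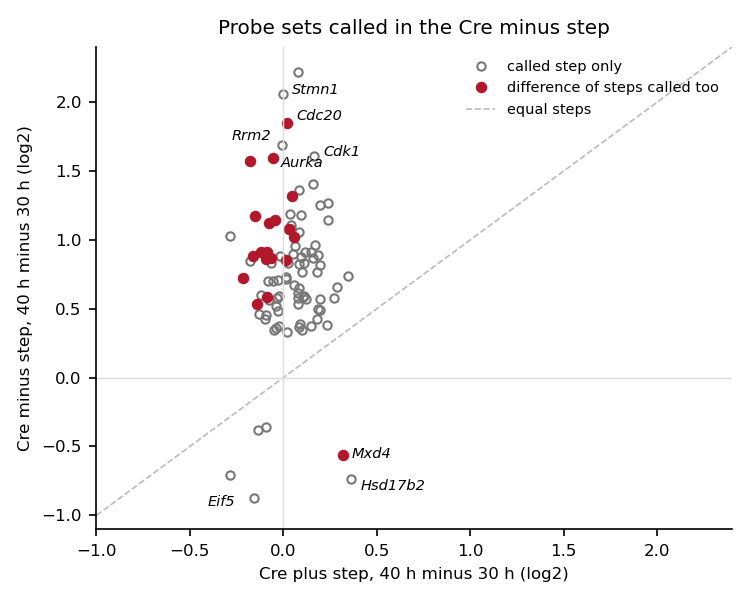
Step in Cre minus livers (vertical axis, log2, 40 h minus 30 h) against the same step in Cre plus livers (horizontal axis) for the 94 probe sets called in Cre minus livers. Filled points also passed the test of the difference, and the dashed line marks equal steps. The 88 higher ones lie between 0.33 and 2.22 upward and between -0.28 and 0.35 across. All were chosen by the step on the vertical axis, so their place away from the dashed line is partly built in.

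Only 6 probe sets were called lower at 40 h, each of a different gene. Eif5, which stimulates hydrolysis of the GTP held by the initiation factor eIF2, read 7.43, 8.08, 7.40 and 7.80 at 40 h, against 8.31, 8.30, 9.61 and 8.06 at 30 h. The groups overlapped slightly, and the step was -0.87 ± 0.21 (adjusted p = 0.0388). Psmd3, a subunit of the regulatory cap of the proteasome, read 8.55, 8.55, 8.51 and 9.03 at 40 h, against 9.26, 9.25, 9.77 and 9.24 at 30 h (step -0.71 ± 0.15, adjusted p = 0.0161). There was no overlap, and the highest liver at 40 h was D. Hsd17b2, which inactivates oestradiol and testosterone, had -0.74 ± 0.18 (adjusted p = 0.0386), with 7.44 to 7.90 at 40 h and 8.23 to 8.52 at 30 h. Mxd4, which competes with Myc for its partner Max, had -0.56 ± 0.12 (adjusted p = 0.0161). It was the 1 gene called lower in the difference between genotypes, at -0.88 ± 0.18 (adjusted p = 0.0271), and that call was lost on 5 of 16 omissions, with p of at most 0.100, and without the 3 arrays under r 0.95 (adjusted p = 0.0617). Cyp2d10, a liver cytochrome P450, had -0.38 ± 0.09 (adjusted p = 0.0223), with -0.36 (adjusted p = 0.104) for a dimmer probe set, and Kcnj8, a pore subunit of ATP-sensitive potassium channels, -0.36 ± 0.08 (adjusted p = 0.0277). Of these 6, each lost its call without liver C at 30 h, with adjusted p of 0.128 for Eif5, 0.111 for Psmd3, 0.113 for Hsd17b2, 0.105 for Mxd4, 0.0622 for Cyp2d10 and 0.164 for Kcnj8. Leaving out 1 or more of livers A, B and C at 40 h also ended each of these calls.

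**Figure D4:**
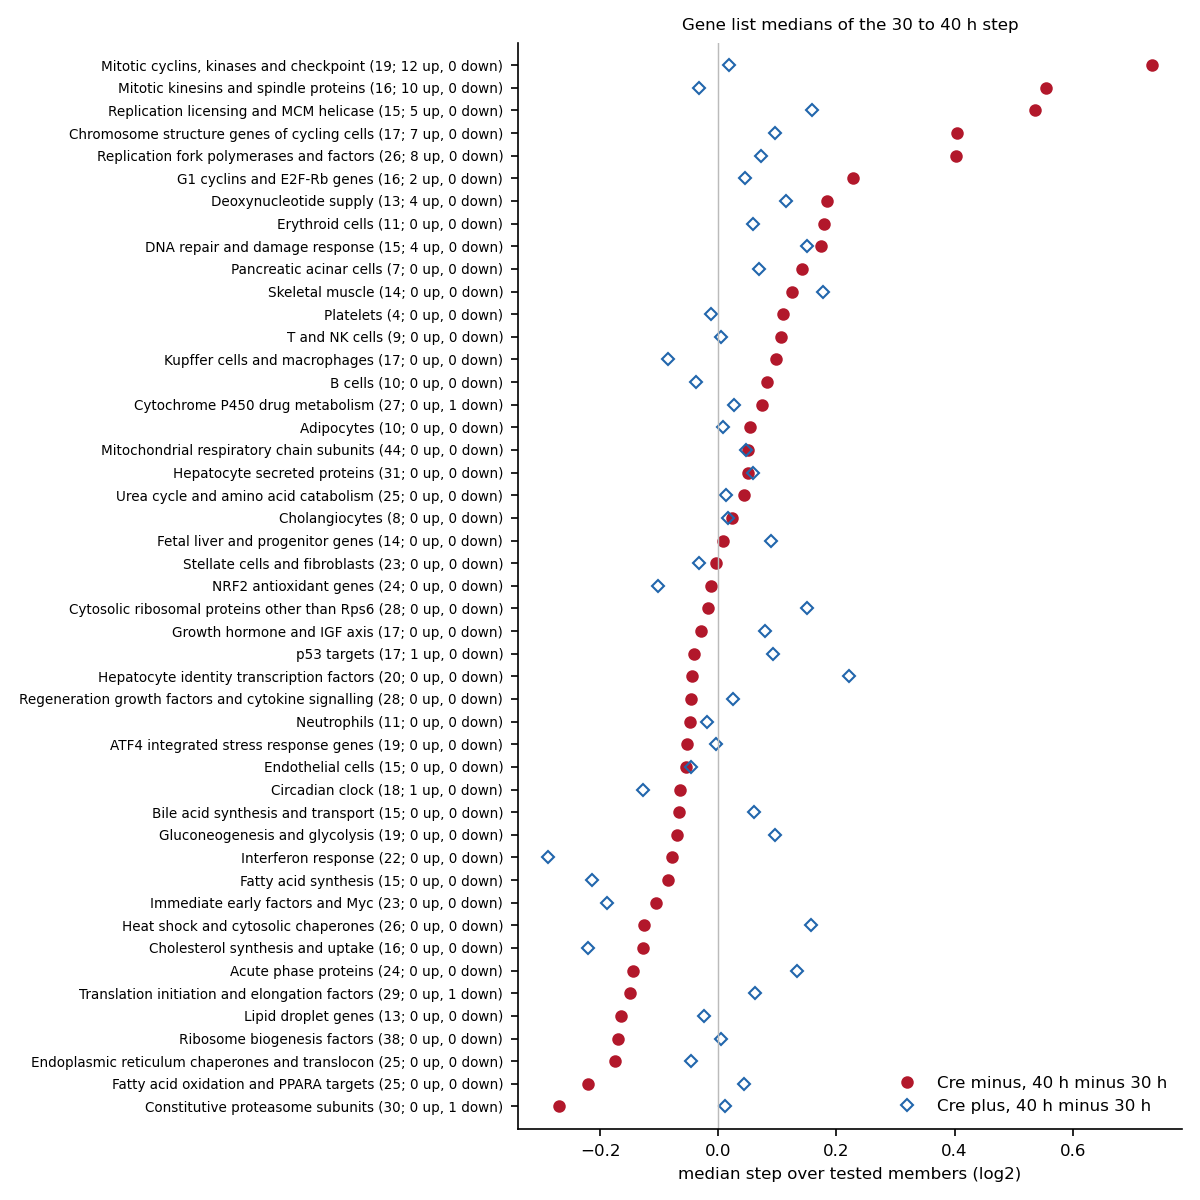
Median step (horizontal axis, log2, 40 h minus 30 h) over the tested members of each of 47 gene lists, as filled circles for Cre minus and open diamonds for Cre plus livers. Beside each name stand the number tested and the numbers called higher and lower in Cre minus livers. The 5 highest Cre minus medians, 0.40 to 0.73, belong to cell cycle lists.

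Lists tied to growth had medians below 0 and few calls. Over all genes 53.6% had a step above 0 and 0.0884% were called lower. Of 38 ribosome biogenesis factors none was called and 34 were below 0, with a median of -0.17. Ncl, nucleolin, read 7.71 to 8.34 at 40 h and 8.32 to 9.14 at 30 h (step -0.56 ± 0.26, adjusted p = 0.546). Without liver C at 30 h the list median was -0.02, and with array weights it was -0.06. Within PHX3 it was -0.06 and within PHX2 -0.26. Among 29 translation factors 1 was called lower, Eif5, and the median was -0.15. Eif1a, a scanning factor, fell short at -0.99 ± 0.25 (adjusted p = 0.0579), with 7.07 to 7.65 at 40 h and 7.83 to 8.72 at 30 h, and its other probe set had -1.03 (adjusted p = 0.119). Of 30 constitutive proteasome subunits 28 were below 0, with a median of -0.27, and 1 was called, Psmd3. That median was -0.25 without liver C at 30 h, and the median over all genes was 0.01. The cytosolic ribosomal proteins other than Rps6 had a median of -0.02, or -0.01 without liver C at 30 h, with none of 28 called. Of 25 chaperones and translocon genes of the endoplasmic reticulum none was called and 20 were below 0, with a median of -0.17, which was -0.35 within PHX3 and 0.13 within PHX2. Hspa5, its main chaperone, read 9.99, 9.95, 10.21 and 10.31 at 40 h, against 10.97, 10.97, 10.88 and 10.11 at 30 h (step -0.64 ± 0.36, adjusted p = 0.627). Afp, alpha-fetoprotein of fetal liver, read 5.26, 5.55, 5.47 and 5.39 at 40 h, against 5.33, 5.43, 5.10 and 5.06 at 30 h (step 0.20 ± 0.13, adjusted p = 0.656).

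Of the p53 targets and immediate early genes 1 passed the test in this interval. Over all genes 1.09% were called higher and 0.0884% lower by their brightest probe set. Few calls therefore say little about lists this short. Of 17 p53 targets Gtse1, itself made in G2 and mitosis, was called higher, at 0.36 ± 0.09 (adjusted p = 0.0378), and lost without liver A, C or D at 30 h or A, B or C at 40 h (highest p 0.171). Cdkn1a, the p21 inhibitor of cyclin-dependent kinases, read 8.08, 8.19, 8.09 and 8.24 at 40 h, against 7.84, 8.57, 10.36 and 8.26 at 30 h. Its step of -0.42 ± 0.35 (adjusted p = 0.725) was -0.02 without liver C at 30 h, the only high one. Mdm2, another p53 target, was at 6.19 to 6.57 at 40 h and 6.14 to 6.69 at 30 h (adjusted p = 0.960). None of 23 immediate early genes was called. Myc read 3.85, 3.72, 3.98 and 4.28 at 40 h, against 4.52, 3.99, 5.40 and 3.56 at 30 h (step -0.31 ± 0.38, adjusted p = 0.803). Klf4 and Ier3, early growth-response genes, stood at 7.26 and 7.60 in liver C at 30 h, with the other livers of that time between 4.29 and 5.58.

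Among 27 cytochrome P450 genes 1 was called, Cyp2d10, and the list median was 0.07, or -0.01 without liver C at 30 h. A single call in a list this short says little beside the 0.0884% of all genes called lower. Fatty acid oxidation genes had a median of -0.22 over 25, with none called. Within PHX3 that median was -0.34, within PHX2 it was 0.25, and without liver C at 30 h it was -0.13. Pdk4, which spares glucose, read 5.16 to 5.66 at 40 h, against 5.42, 6.02, 10.87 and 5.31 at 30 h, so that its step of -1.19 ± 0.97 (adjusted p = 0.716) was -0.09 without liver C. Cidec, a lipid droplet protein, read 4.38 to 5.06 at 40 h, against 4.47, 6.59, 10.10 and 4.76 at 30 h (adjusted p = 0.652). Liver C at 30 h thus carried the extreme value in both. Lipid droplet genes had a median of -0.17 over 13, and fatty acid synthesis of -0.08 over 15, or -0.00 without liver C at 30 h. Srebf1, the regulator of fatty acid synthesis, read 9.34 to 10.94 at 40 h and 8.11 to 10.01 at 30 h (step 1.09 ± 0.56, adjusted p = 0.593). Cyp7a1, the rate-limiting enzyme of bile acid synthesis, was at 5.65 to 7.23 at 40 h and 4.76 to 7.32 at 30 h (adjusted p = 0.683). Igfbp1, a binding protein for insulin-like growth factors, averaged 7.35 ± 1.01 at 40 h and 8.82 ± 0.84 at 30 h (SD, n = 4 each), with overlap and an adjusted p of 0.380.

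Of 18 clock genes, which vary with the time of day, 1 was called, Wee1. Beside the 1.09% of all genes called higher, a single call says little about the list. Arntl, which encodes the clock activator BMAL1, read 5.38, 5.54, 5.45 and 5.41 at 40 h, against 6.39, 5.97, 6.29 and 5.79 at 30 h. The groups did not overlap, yet the step of -0.72 ± 0.33 was not called (adjusted p = 0.535). Dbp, a clock output gene, read 5.99, 5.54, 5.64 and 5.95 at 40 h, against 4.79, 5.39, 4.91 and 5.45 at 30 h (step 0.77 ± 0.48, adjusted p = 0.652). In Cre plus livers the step was -0.96 for Arntl, 0.78 for Dbp and 0.35 for Wee1. Neither the difference of -0.01 ± 0.69 for Dbp nor that of 0.24 ± 0.47 for Arntl between the genotypes was called. Nr1d1, a repressor in the clock, had -0.06 ± 0.27 (adjusted p = 0.954). The part of clock time in any result above was not tested.

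Markers of other cell types gave no calls in any of 13 lists, hepatocyte secreted proteins included. Over all genes only 1.09% were called higher and 0.0884% lower. The lack of calls in these lists therefore does not show that cell content was unchanged. The highest list medians were 0.18 for 11 erythroid genes and 0.14 for 7 pancreatic acinar genes, and the lowest was -0.05, for 15 endothelial genes. The median log2 level of erythroid markers was 6.08 to 6.28 at 40 h and 5.88 to 6.32 at 30 h, and that of Kupffer cells and macrophages was 7.22 to 7.63 at 40 h and 7.13 to 7.77 at 30 h (list median of the step 0.10, or 0.02 without liver C at 30 h), so the groups overlapped in both. The globin genes had wider steps without passing the test. Hba-a1 read 12.37, 11.46, 12.10 and 11.47 at 40 h, against 10.86, 10.13, 10.45 and 11.43 at 30 h (step 1.16 ± 0.59, adjusted p = 0.581). Hbb-b2 was at 7.58 to 8.69 at 40 h and 5.88 to 7.32 at 30 h (step 1.35 ± 0.56, adjusted p = 0.473). For both genes the livers at 40 h lay above those at 30 h, and the probes may not tell near-identical globin genes from one another. The part of erythroid cells in the step of the cell cycle genes was not tested. Gata1, an erythroid transcription factor, was at 5.59 to 5.70 at 40 h and 5.42 to 5.58 at 30 h (step 0.18 ± 0.08, adjusted p = 0.498).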

How the data were processed

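Total liver RNA was hybridised as biotin-labelled cRNA to 1-colour arrays. The authors deposited log2 values for 12488 probe sets, computed by RMA, per the submitters' processing notes. The sources used here give neither its version nor whether PHX2 and PHX3 were processed jointly. The base was taken as 2 from the range, 2.30 to 14.12. Names came from the platform annotation with symbols updated (10833 of 12422 non-control probe sets with 1 gene, 396 with several, 1193 unnamed here). A probe set was tested when above its array's 30th percentile on at least 3 of the 32 arrays.

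The fit used limma 3.58.1 in R 4.3.3 (lmFit, eBayes, 2-sided) over all 32 arrays with 8 group means and batch, after a check on simulated data. Lists (47) are described by counts and medians, each gene entering by its brightest probe set. Genes named were the 10 highest and 10 lowest called with the same sign in both batches, up to 5 members of each list described, 20 fixed genes (Ccnb1 and Per2 had no tested probe set of their own, and Bmal1 is Arntl) and the 5 highest and lowest called differences between genotypes. Exceptions are marked. Members, lists and motifs were chosen with earlier results of these data known. The number of arrays limits the precision. Alternatives covered the arrays fitted, batch, normalization, filter, weights, replicate blocks and omitted livers.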

Additional observations from a re-analysis of the deposited data

Results flagged for a closer look

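In 378 groups of 4 or 5 livers over 126 named genes, 31 (8.20%) held a liver whose gap to the next was above Dixon's 95% critical value, where chance alone flags about 5%. All values here are log2 levels. At 40 h in Cre minus livers, liver D was highest for Psmd3 (9.03), Gmnn (6.18), Dusp1 (7.28), Klf4 (4.84) and Cyp8b1 (8.71) and lowest for Kif20a (4.30). In that group liver B was highest for Igfbp1 (8.85) and liver C for Slc4a1 (5.33). At 30 h in Cre minus livers, liver C was highest for Eif5 (9.61), Psmd3 (9.77), Klf4 (7.26), Ier3 (7.60), Thrsp (10.47), Pdk4 (10.87) and Pnpla2 (11.25) and lowest for Ccnd1 (6.14) and Rfc4 (3.39). Also at 30 h, liver D was lowest for Hspa5 (10.11) and Bcl6 (5.08) and liver B for Sel1l (6.89).

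At 40 h in Cre plus livers, liver D was lowest for Tfdp1 (5.61), Rfc4 (3.49) and Fmo5 (8.98) and highest for Anln (4.53), Klf4 (5.97) and Nfil3 (8.92). The other outlying values there were Cdk1 in liver E (5.75), Kcnj8 in liver B (5.05), Alb in liver A (13.35), Prc1 in liver C (5.85) and Cyp3a13 in liver C (8.72). Dusp1 is an inducible phosphatase, Thrsp and Pnpla2 act in fat synthesis and breakdown, and Slc4a1 is the red cell anion exchanger.

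The step differed between genotypes by the test of the difference itself (Cre minus step minus Cre plus step, log2) for 11 genes that the naming rule chose. It was 1.83 for Cdc20, 1.64 for Aurka, 1.33 for Kif20a, 1.27 for Mad2l1, 1.20 for Ccnb2, 1.19 for Birc5, 0.997 for Anln, 0.95 for Uhrf1, 0.93 for Ncaph, 0.68 for Cdc45 and -0.88 for Mxd4. Of these the calls of Anln and Ncaph were lost on 13 and 10 of 16 single omissions. The Kif20a value is that of its dimmer probe set. Cdca3 (0.84), Cdca8 (1.05) and Dtl (1.03), chosen after their values were seen, also differed.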

How the results depend on the processing

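Of the 94 called probe sets 1 changed sign in 1 setting, that of several H2a genes within PHX2. Against 94 probe sets called (88 higher, 6 lower), array weights gave 568 (334 and 234, 92 of the 94 among them), the 16 Cre minus arrays alone 41 (37 and 4), PHX3 alone 47 (41 and 6), a stricter filter on dim probe sets 47 (44 and 3), and omission of the 3 arrays with a mean r under 0.95 (Cre minus liver C at 30 h and Cre plus livers A at 30 h and D at 40 h) 52 (51 and 1). Requiring 2-fold left 24 for the step and 10 for the difference. The 8 arrays alone and PHX2 alone gave 0 (limma, 481 and 253 at an unadjusted p under 0.05), with 5 and 7 residual degrees of freedom. Omitting single livers gave 53 to 121 calls, 52 to 105 higher and 1 to 20 lower. Batch left out, centring, quantile normalization, no filter and a trended robust fit kept the counts within 1.5 times.

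The difference between genotypes, 19 calls (18 higher, 1 lower), gave 1 in PHX2 (0 higher; 250 at an unadjusted p under 0.05), 2 in PHX3 (2 higher, 0 lower; 417), 13 with no batch term (0 lower; 384), 30 with quantile normalization (28 and 2), 5 with the stricter filter (4 higher), 1106 with weights (373 and 733) and 353 without the 3 arrays under r 0.95 (120 and 233). Omitting single livers gave 7 to 52, 7 to 46 higher and 0 to 6 lower.

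Whether replicate letters pair the samples could not be settled, since 4 letters are few and the C livers were in different batches. Deviations of same-letter livers at 40 and 30 h correlated at 0.05 (A), 0.30 (B), -0.00 (C) and 0.24 (D), with 2 of 4 best matched by their own letter. With the letter as a replicate block the 8 arrays gave 0 calls (593 at an unadjusted p under 0.05) and all 32 gave 83 (79 and 4) for the step and 9 (9 and 0; 311) for the difference. The causes of these shifts were not tested.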
